A study of Homo sapiens with 12 samples.

Results

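SR proteins are RNA-binding proteins with a tail rich in arginine and serine that bind exons and recruit the splicing machinery. Kinases of the SRPK and CLK families phosphorylate the tail, which sets whether an SR protein is active and where in the cell it lies. Many SR genes also splice their own transcripts into forms with a premature stop codon, which marks them for nonsense-mediated decay, so that transcripts of 1 gene can differ in their fate. Here the RNA of 10 listed SR genes was followed in precipitates of eIF4E, the protein that binds the cap at the 5′ end of messenger RNAs and starts their translation. The members were the probe sets, groups of short probes for a transcript, whose only annotated gene was SRSF1, SRSF2, SRSF3, SRSF4, SRSF5, SRSF6, SRSF7, SRSF10, SRSF11 or TRA2B. They came to 27 of the 19064 probe sets with a single gene and covered 9 of 11963 genes. The 3 probe sets of SRSF2 were annotated with a microRNA gene as well and were left out, so SRSF2 has no value here.

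The cells were MDA-MB-231, an established human line of triple-negative breast cancer. All groups came from this 1 line. Cells were either left untreated or given 2 Gy of X-rays and taken 6 h later, and RNA-protein complexes were pulled down either with anti-eIF4E or with IgG, which shows the RNA recovered without a specific antibody. The 4 groups (untreated IgG, irradiated IgG, untreated eIF4E, irradiated eIF4E) held 3 arrays each, 12 in all, described in the series as biological replicates. As each array measured a pool of cells, less RNA per cell and fewer cells with that RNA cannot be told apart. No array measured RNA before precipitation, so a change in an RNA's amount in the cells and one in its recovery cannot be told apart either. Signals were deposited on a linear scale with every array brought to the same trimmed mean, so that higher and lower always mean relative to the other RNAs of that array.

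Arrays of one antibody differed from those of the other in their control probe sets. Signal for Alu, a repeat common in introns and between genes, ranged from 36876 to 53246 with IgG (6 arrays) and from 13482 to 18476 with eIF4E (6 arrays), and actin's 3′ signal exceeded its 5′ signal 2.96 to 5.38 times with IgG and 1.33 to 1.53 times with eIF4E (exact two-sided permutation test, p = 0.00216 for each, the smallest that 6 against 6 arrays allow). Both measures move with every antibody difference given below, and their part in it was not tested. The ratio of 2 hybridization controls, bioB to bioC, was 0.335 to 0.517 on the replicate 1 array of each group and 0.0265 to 0.0572 on all other arrays, so the antibody counts are also given without all replicate 1 arrays. Of 8 mesenchymal markers that fit this line, 7 were bright enough to be tested, while ESR1, FOXA1 and CDH1 of the 8 luminal markers were not and GATA3, EPCAM and 3 keratins were. Log2 signals correlated at 0.955 to 0.988 between arrays of a group. The number of arrays limits the precision of every value.

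A cap lies on the first transcribed base. The start windows below show it for the 4 genes with calls in both directions and for SRSF5, whose tested probe sets were all higher. Each runs from 15 bases before the annotated start (lower case) to the first 10 transcribed bases (capitals), 5′ to 3′, from RefSeq on GRCh38.p14. The windows lie at chr17:58007237-58007261 (minus strand) for SRSF1, chr6:36594347-36594371 (plus strand) for SRSF3, chr14:69767127-69767151 (plus strand) for SRSF5, chr20:43457881-43457905 (plus strand) for SRSF6 and chr3:185938005-185938029 (minus strand) for TRA2B, at the 5′ end of the first exon.
SRSF1: cgagctgataaaggcGCCATTTTGG
SRSF3: ggagaaggcggtggtCCGCCATTTC
SRSF5: agagctgctaagtgcGTCAGTTGTG
SRSF6: gcgcgcgcgcgcgccATTGTGTGGC
TRA2B: acatccggtagagttAGAGCCCGTG
RefSeq windows matched 9 of the 10 listed genes, 11 windows in all, because SRSF7 and SRSF11 each have 2 annotated starts. A start with C followed by 4 pyrimidines, the hallmark of messengers whose translation follows growth signals, was in 0 of these 11 windows and in 5.27% of the 9705 windows of tested genes. SRSF3 was the member that started with C, the first base of 11.9% of all windows. A window gives an annotated start and not the start used in these cells, and it was not matched to single probe sets.

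Setting eIF4E against IgG asks which RNAs were higher or lower with the cap-binding protein, relative to the other RNAs of an array. As all arrays share a trimmed mean, total recovery with each antibody is not compared. The SR genes did not move as one: over both treatments 9 of 24 tested probe sets were higher with eIF4E, 8 were lower and 7 did not pass. The highest was SRSF5 at 0.91 ± 0.11 and the lowest SRSF6 at -1.53 ± 0.10 (difference of log2(signal + 16), SE, 6 arrays a side), and SRSF1, SRSF3, SRSF6 and TRA2B each held calls of opposite direction. Among all 11438 tested probe sets, 29.8% were higher and 36.6% lower by the same rule, an adjusted p under 0.05 by limma with Benjamini-Hochberg adjustment over all of them, so the share of SR probe sets called in either direction was close to the background of 66.4%. The median difference was 0.11 over the 24 SR probe sets and -0.07 over all, but with 1 probe set per gene the median of the 9 SR genes lay below 0, at -0.66. Once all replicate 1 arrays were left out, 8 were higher and 11 lower, beside 29.1% and 35.5% of all tested in that fit. All 6 eIF4E arrays lay above all 6 IgG arrays in 6 SR probe sets and below them in 7, where 20.6% and 25.1% of all tested probe sets did so.

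**Figure D1:**
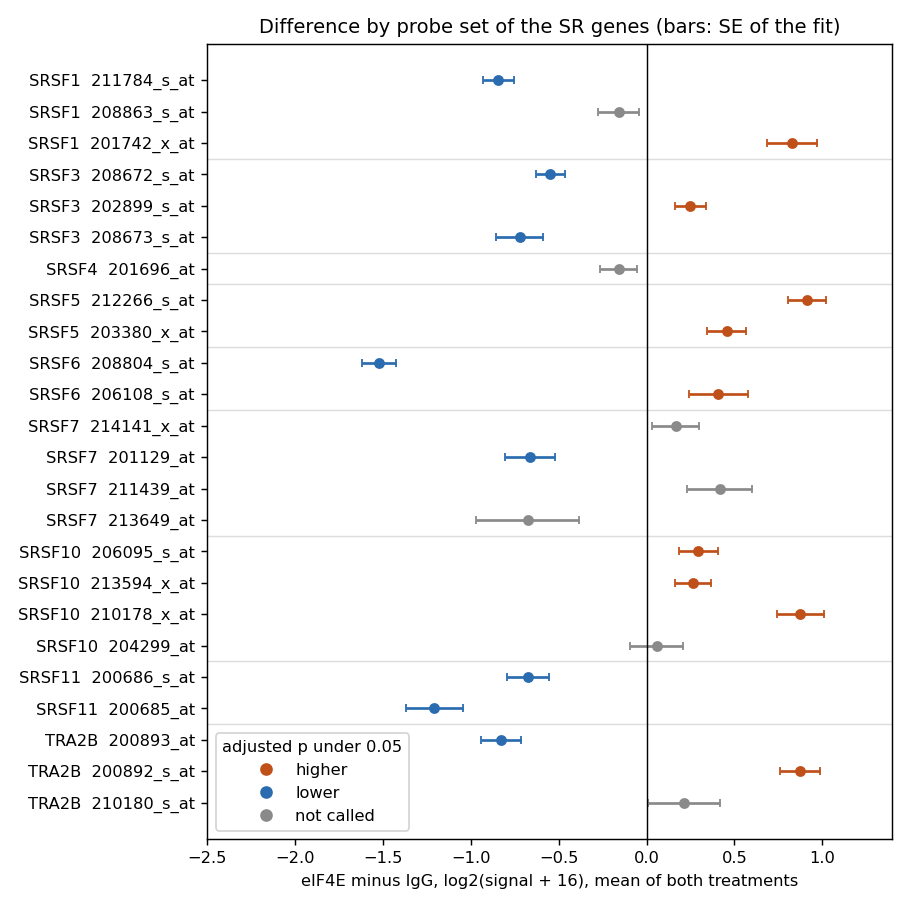
Difference between eIF4E and IgG arrays for the 24 tested SR probe sets, on the x axis as log2(signal + 16) averaged over both treatments, with the SE of the limma fit as bars and colours for the call at an adjusted p of 0.05. Probe sets of 1 gene stand between grey lines, and SRSF1, SRSF3, SRSF6 and TRA2B have calls on both sides of 0. Probe sets of SRSF7 also lie on both sides, with 1 call, 201129_at on the lower side.

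SRSF1, the prototype of the family and a known oncogene, had one probe set lower and another higher. Probe set 211784_s_at gave signals of 8629, 7986 and 7301 on untreated IgG arrays, 7529.6, 6499.8 and 6891 on irradiated IgG arrays, 4355, 4344 and 4155 on untreated eIF4E arrays and 4439.8, 3724 and 3854 on irradiated eIF4E arrays. Its eIF4E arrays all lay below its IgG arrays, a difference of -0.84 ± 0.09 (adjusted p = 2.69e-07), or 1.80-fold lower. Probe set 201742_x_at gave 308, 316 and 470.1 on untreated IgG arrays, 288, 376 and 492 on irradiated IgG arrays, 654, 693 and 754 on untreated eIF4E arrays and 712, 563 and 629 on irradiated eIF4E arrays. Here every eIF4E array lay above every IgG array, and the probe set was higher by 0.83 ± 0.14 (adjusted p = 7.13e-05). Its suffix _x marks probes that can also bind other genes. The remaining tested probe set, 208863_s_at, was at -0.16 ± 0.12 (adjusted p = 0.240) with overlapping arrays; it passed as lower with array quality weights (-0.25, adjusted p = 0.0404) and in the absence of all replicate 1 arrays (-0.29, adjusted p = 0.0267). Within an array the log2 ratio of 211784_s_at to 201742_x_at fell by 1.67 ± 0.19 from IgG to eIF4E (limma on the ratio, adjusted p = 3.45e-05).

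SRSF3, the smallest SR protein, which also takes part in exporting messengers, had 3 tested probe sets. Signals of 208672_s_at were 9901, 11726 and 11344 on untreated IgG arrays, 10152, 10696 and 10565 on irradiated IgG arrays, 7302, 6893 and 7164 on untreated eIF4E arrays and 7219.9, 7659 and 7735 on irradiated eIF4E arrays. Those of 208673_s_at were 2217, 3023 and 3363 on untreated IgG arrays, 2137, 3201 and 3054 on irradiated IgG arrays, 1712, 1971 and 1685 on untreated eIF4E arrays and 1302, 1930.3 and 1596 on irradiated eIF4E arrays. In both, all eIF4E arrays were below all IgG arrays, with differences of -0.55 ± 0.08 (adjusted p = 1.41e-05) and -0.72 ± 0.14 (adjusted p = 1.63e-04). Probe set 202899_s_at gave 3760.4, 3704 and 4155 on untreated IgG arrays, 3444, 4034 and 3809 on irradiated IgG arrays, 4869, 4436 and 4434 on untreated eIF4E arrays and 4381, 4255 and 4874 on irradiated eIF4E arrays. Its eIF4E arrays all lay above its IgG arrays, but the difference was small, 0.25 ± 0.09 (adjusted p = 0.0179), and lost its call after quantile normalization (0.15, adjusted p = 0.122), in the absence of all replicate 1 arrays (0.20, adjusted p = 0.0591) and when irradiated eIF4E replicate 3 was left out (0.22, adjusted p = 0.0556). The ratio of 208672_s_at to 202899_s_at changed by -0.80 ± 0.10 (adjusted p = 7.49e-05) and that of 202899_s_at to 208673_s_at by 0.97 ± 0.15 (adjusted p = 2.40e-04), whereas for 208672_s_at over 208673_s_at it was 0.18 ± 0.14 (adjusted p = 0.333).

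SRSF6, a splicing activator that binds exonic enhancers, held the largest decrease of the family. Probe set 208804_s_at gave 3477, 3345 and 3290.5 on untreated IgG arrays, 2828, 2636 and 3383 on irradiated IgG arrays, 917, 1137 and 1094 on untreated eIF4E arrays and 1146, 1121 and 1094 on irradiated eIF4E arrays. Every eIF4E array was below every IgG array, with a difference of -1.53 ± 0.10 (adjusted p = 1.45e-09), which is 2.88-fold. This value lay at percentile 3.54 of all tested probe sets. The other probe set of the gene, 206108_s_at, gave 496, 767 and 857 on untreated IgG arrays, 566, 821 and 884 on irradiated IgG arrays, 948, 1021 and 986 on untreated eIF4E arrays and 636, 1199 and 1044 on irradiated eIF4E arrays. It was called higher at 0.41 ± 0.17 (adjusted p = 0.0409), although irradiated eIF4E replicate 1 lay within the IgG range. That call was lost with no filter on dim probe sets (adjusted p = 0.0637), with no variance trend (adjusted p = 0.0694) and on leaving out any 1 of 7 arrays, namely replicate 1 of untreated or of irradiated IgG, each replicate of untreated eIF4E, and replicates 2 and 3 of irradiated eIF4E (values from 0.29 to 0.42, adjusted p from 0.0566 to 0.118). The ratio of both probe sets within an array, from which a scaling factor of the array largely cancels, changed by -1.93 ± 0.20 (adjusted p = 2.11e-05), and its eIF4E arrays did not overlap its IgG arrays.

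TRA2B, an SR-like protein that activates exons with purine-rich sequences, showed the same split. Probe set 200893_at gave 9498, 9502 and 10205 on untreated IgG arrays, 9154, 9213 and 8931 on irradiated IgG arrays, 5012, 5452 and 6323 on untreated eIF4E arrays and 3693, 6139 and 5573 on irradiated eIF4E arrays. It was lower with eIF4E by 0.83 on the log2 scale (SE 0.11, adjusted p = 6.86e-06), with no overlap of the antibodies' arrays. Probe set 200892_s_at gave 866, 1172 and 1236 on untreated IgG arrays, 964, 1227 and 1083 on irradiated IgG arrays, 1836, 2246 and 2165 on untreated eIF4E arrays and 2022, 2065 and 1696 on irradiated eIF4E arrays. It was higher by 0.87 ± 0.11 (adjusted p = 3.80e-06), also without overlap, so that the ratio of the first to the second changed by -1.70 ± 0.16 (adjusted p = 1.32e-05). The third, 210180_s_at, was at 0.21 ± 0.20 (adjusted p = 0.371) and did not pass.

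**Figure D2:**
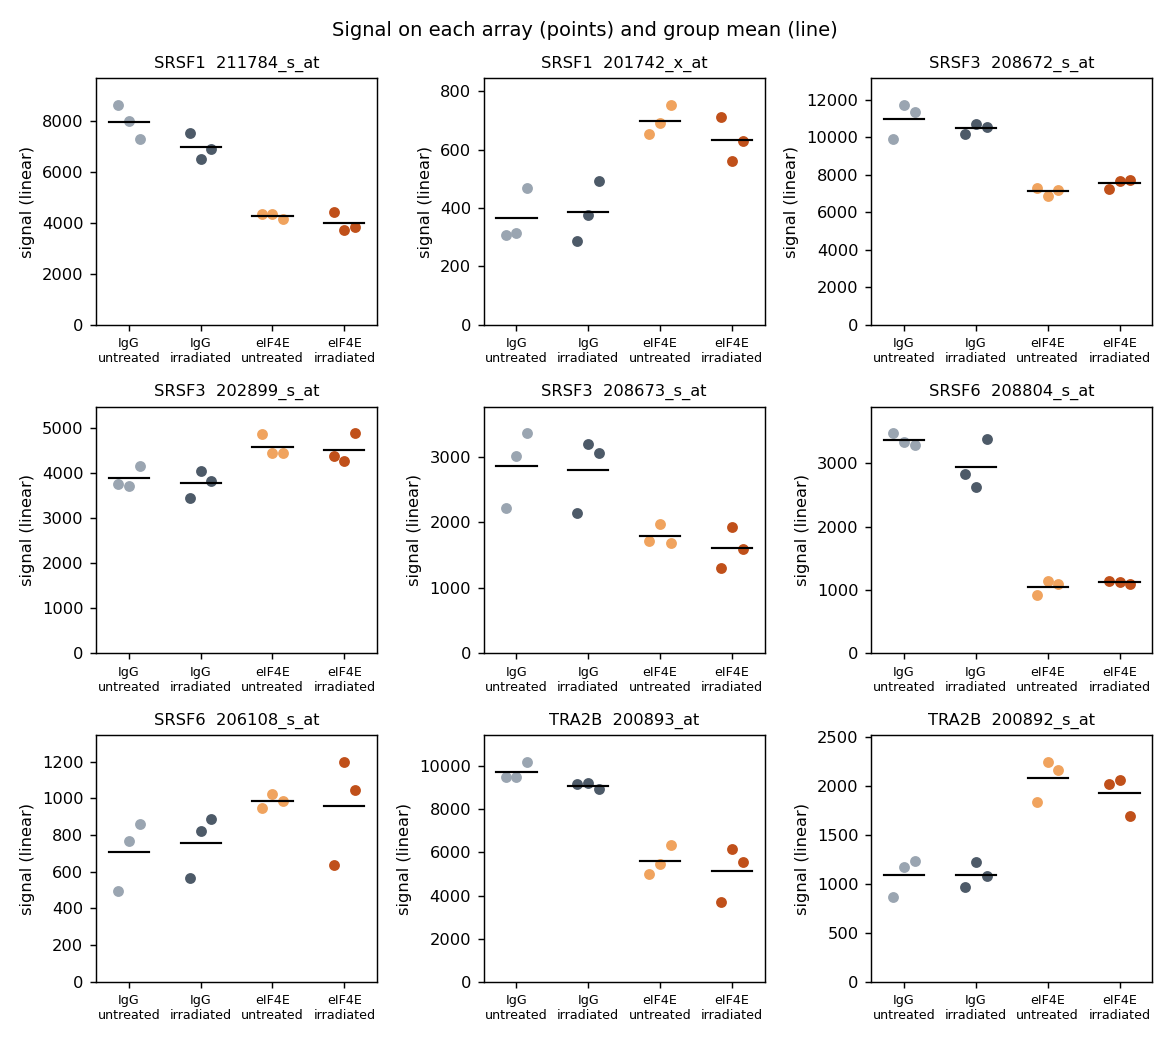
Deposited signal (linear scale from 0, y axis) on each of the 12 arrays for the 9 probe sets of SRSF1, SRSF3, SRSF6 and TRA2B that were called in opposite directions within their gene. Points are arrays, lines are means of 3 arrays, and in 8 of the 9 panels the eIF4E arrays do not overlap the IgG arrays, the exception being SRSF6 206108_s_at. Among all tested probe sets 20.6% were separate upwards and 25.1% downwards. The 9 were chosen by their calls on these same arrays, so their separation is no further support.

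Splits of this kind were tested directly on the ratio of 2 probe sets of a gene within each array. Of the 24 pairs among tested SR probe sets, 17 differed in their antibody difference (70.8%), where 51.3% of the 5361 pairs in the whole table did by the same fit and adjustment. The 24 pairs lie in 8 genes and share probe sets, so they are not independent of each other. The 5361 pairs lie in 2513 genes, so SR genes held more pairs each. Of 7 SR genes with at least 2 called probe sets, 4 had calls in opposite directions (57.1%), compared with 250 of 1457 such genes on the array (17.2%). More probe sets give a gene more chances of an opposite call, and these shares were not matched for their number. Neither these shares nor those of the pairs were matched for signal. In SRSF3 and SRSF6 the higher call was one that did not hold under all alternatives, as given with those genes. In SRSF1 the higher call was that of 201742_x_at, whose suffix marks probes that can also bind other genes. The 5 pairs with opposite calls were chosen by those calls on these same arrays, so a pass of their ratios is no further support. They passed in each of the 21 alternatives tried for them, with a largest adjusted p of 0.00355. The pairs closer to the threshold did not: SRSF11 passed in 11 of 20, TRA2B 200892_s_at with 210180_s_at in 7 of 21, SRSF7 211439_at with 213649_at in 13 of 20 and SRSF10 206095_s_at with 210178_x_at in 17 of 21. A changed ratio shows that 2 probe sets changed unequally and not which of them changed, and the place of each probe set in its transcript was not used here. The ratio of 3′ to 5′ signal of actin also differed between the antibodies, as given above, and its part in these ratios was not tested.

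**Figure D3:**
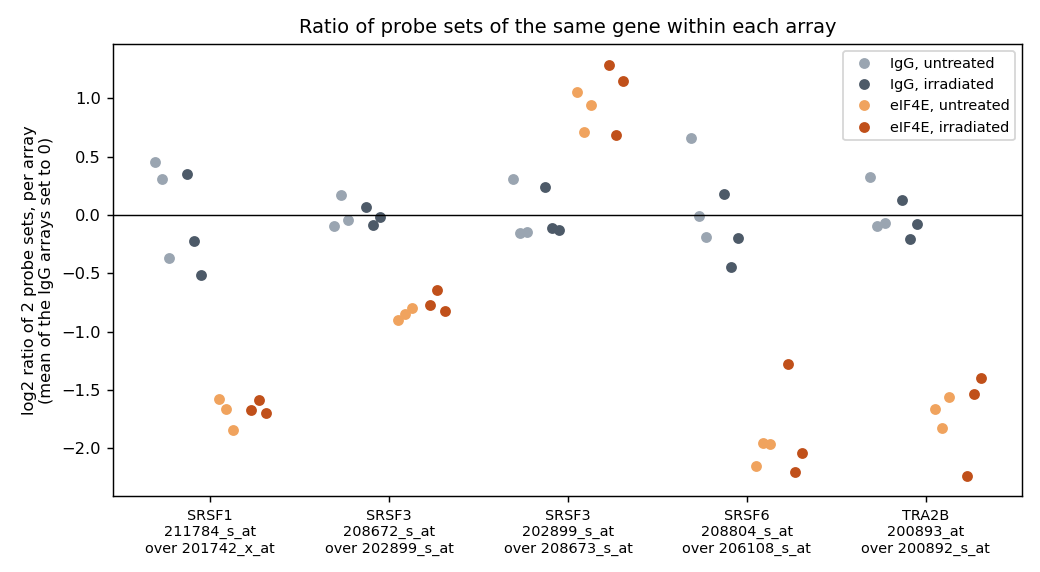
Log2 ratio of 2 probe sets of 1 gene on each array (y axis), set to 0 at the mean of the 6 IgG arrays, for the 5 SR pairs called in opposite directions. For SRSF1 the IgG arrays span -0.52 to 0.46 and the eIF4E arrays -1.85 to -1.58, and for SRSF6 -0.45 to 0.66 and -2.21 to -1.28. The 5 were chosen by their calls on these same arrays, so the separation of their ratios is no further support.

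SRSF5, an SR protein whose messenger responds to growth factors and hormones, was higher with eIF4E in both tested probe sets. Probe set 212266_s_at gave 1405, 1198 and 1338 on untreated IgG arrays, 1416, 1229 and 1731 on irradiated IgG arrays, 2663, 2589 and 2500.0 on untreated eIF4E arrays and 3074, 2304 and 2575 on irradiated eIF4E arrays. It was higher by 0.91 ± 0.11 (adjusted p = 1.11e-06), or 1.88-fold, and 203380_x_at by 0.46 ± 0.11 (adjusted p = 0.00150), each with all eIF4E arrays above all IgG arrays. The rise was larger in the first, by 0.46 ± 0.10 (adjusted p = 0.00235). SRSF10, which represses splicing when it loses its phosphates after heat shock, was higher in 3 of 4 probe sets and lower in none. Its 206095_s_at gave 1726, 1737 and 1354 on untreated IgG arrays, 1080.2, 1270.0 and 1251 on irradiated IgG arrays, 1821, 1668 and 1542 on untreated eIF4E arrays and 1433, 2029 and 1768 on irradiated eIF4E arrays, with arrays of both antibodies overlapping and a difference of 0.29 ± 0.11 (adjusted p = 0.0273). The difference of 210178_x_at was 0.88 ± 0.13 (adjusted p = 1.85e-05) without overlap, that of 213594_x_at 0.27 ± 0.10 (adjusted p = 0.0299) and that of 204299_at 0.06 ± 0.15 (adjusted p = 0.748). The call of 206095_s_at was lost without untreated IgG replicate 3, untreated eIF4E replicate 1 or irradiated eIF4E replicate 2 or 3 (adjusted p from 0.0554 to 0.0843). That of 213594_x_at was lost without all replicate 1 arrays (adjusted p = 0.136) and without any 1 of 7 arrays, untreated IgG replicate 2, irradiated IgG replicate 1 or 3, any untreated eIF4E replicate or irradiated eIF4E replicate 1 (adjusted p from 0.0503 to 0.0665).

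SRSF11, an SR-related protein that contacts the U2AF splicing factor, was lower with eIF4E in both tested probe sets. Probe set 200686_s_at gave 2616, 2342 and 3252 on untreated IgG arrays, 2571, 2241 and 2643 on irradiated IgG arrays, 1483, 1694 and 1449 on untreated eIF4E arrays and 2123, 1659 and 1396 on irradiated eIF4E arrays. All eIF4E arrays were below all IgG arrays, with a difference of -0.68 ± 0.12 (adjusted p = 8.03e-05), and 200685_at was lower still at -1.21 ± 0.16 (adjusted p = 5.05e-06), 2.31-fold. SRSF4, a member with a long arginine-serine tail, was measured by 1 probe set, 201696_at, with 1411, 1586 and 1747 on untreated IgG arrays, 1567, 1932 and 1527 on irradiated IgG arrays, 1626, 1291 and 1413 on untreated eIF4E arrays and 1676, 1350.1 and 1379.6 on irradiated eIF4E arrays. Arrays of both antibodies overlapped and its difference of -0.16 ± 0.11 (adjusted p = 0.202) did not pass, though it did once all replicate 1 arrays were left out (-0.31, adjusted p = 0.0142).

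SRSF7, the close relative of SRSF3 that carries a zinc knuckle, gave 4 tested probe sets with 1 call. Probe set 214141_x_at gave 2449, 2728 and 2655 on untreated IgG arrays, 5047, 2804 and 2855 on irradiated IgG arrays, 2872, 3449 and 3079.5 on untreated eIF4E arrays and 3559, 4177 and 3172 on irradiated eIF4E arrays. Irradiated IgG replicate 1 stood above the other IgG arrays, and the difference of 0.17 ± 0.13 (adjusted p = 0.288) did not pass; it did without that array (0.30, adjusted p = 0.00943), without all replicate 1 arrays (0.32, adjusted p = 0.0120) and after median centring (0.33, adjusted p = 0.0429). Probe set 201129_at was lower at -0.66 ± 0.14 (adjusted p = 5.12e-04), with overlapping arrays. The dimmer 211439_at and 213649_at, with signals of 53.8 to 110.3 and 13.1 to 150.4, were at 0.42 ± 0.19 (adjusted p = 0.0592) and -0.68 ± 0.29 (adjusted p = 0.0515). The first passed as higher after quantile normalization (adjusted p = 0.0200), after median centring (adjusted p = 0.0136), without a variance trend (adjusted p = 0.0171), with array weights (adjusted p = 0.0289) and without irradiated IgG replicate 1 or irradiated eIF4E replicate 2 (adjusted p from 0.0281 to 0.0384). The second passed as lower with a pseudocount of 64 (adjusted p = 0.0399), with array weights (adjusted p = 0.00428), without all replicate 1 arrays (adjusted p = 0.00698) and without untreated IgG replicate 2, irradiated IgG replicate 1 or irradiated eIF4E replicate 1 or 2 (adjusted p from 0.00925 to 0.0466). The ratio of 201129_at to 211439_at changed by -1.08 ± 0.15 (adjusted p = 1.30e-04).

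The remaining 3 SR probe sets lay under the filter on mean signal and were not tested. They were SRSF1 201741_x_at, SRSF5 210077_s_at and SRSF11 213742_at, with signals over the 12 arrays of 3.51 to 52.3, 0.873 to 11.8 and 2.87 to 58.7. The median signal of 15 genes not expected in this line, such as albumin and the T cell gene CD3E, was 6.76 to 24.0 per array, and the filter lay at a signal of 39.5. Single signals of these genes reached 93.5 (MYL2), within the range of the dimmer SRSF7 probe sets. The 1 of these genes with a tested probe set was called lower with eIF4E over both treatments (-0.78), but not within untreated or irradiated cells alone. By kind of probe set, 4 of 5 tested SR probe sets with the suffix _x_at were higher and 0 lower, 5 of 12 with _s_at were higher and 5 lower, and 0 of 7 with plain _at were higher and 3 lower. Of all tested probe sets, 33.9% with _x_at were higher and 30.2% lower, 32.2% and 35.5% with _s_at, and 26.9% and 38.9% with plain _at. One probe set for each gene, the brightest and _x_at only where there was no other, left 2 SR genes higher and 6 lower of 9, where 30.8% and 36.4% of 7757 genes were. For SRSF7 this took 201129_at, which was called lower, and not the brighter 214141_x_at, which did not pass.

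The antibody difference was also taken within untreated and within irradiated cells, 3 arrays a side. In untreated cells 5 of the 24 SR probe sets were higher and 8 lower, beside 24.4% and 29.8% of all tested (54.2% in either direction), and arrays did not overlap in 10 higher and 9 lower, beside 27.9% and 34.9%. In irradiated cells 6 were higher and 8 lower, beside 24.4% and 30.3% (54.6% in either direction), and arrays did not overlap in 7 and 7, beside 26.9% and 32.1%. Without all replicate 1 arrays, in untreated cells 4 were higher and 8 lower, beside 25.0% and 29.6% of all tested in that fit, and in irradiated cells 7 were higher and 10 lower, beside 22.6% and 28.8% of all tested in that fit. Median centring moved the median difference of all tested probe sets from -0.09 to 0.04 in untreated and from -0.06 to 0.13 in irradiated cells. It moved the share of higher among all called from 45.0% to 52.9% in untreated cells, with 9 SR probe sets higher and 8 lower, and from 44.6% to 57.2% in irradiated cells, with 8 SR probe sets higher and 5 lower. SRSF6 208804_s_at was at -1.67 ± 0.14 in untreated and -1.38 ± 0.14 in irradiated cells, SRSF5 212266_s_at at 0.97 ± 0.15 and 0.86 ± 0.15, TRA2B 200892_s_at at 0.93 ± 0.16 and 0.81 ± 0.16, and SRSF1 201742_x_at at 0.94 ± 0.20 and 0.72 ± 0.20, all past the threshold, though SRSF1 201742_x_at in irradiated cells did not pass without all replicate 1 arrays (0.45, adjusted p = 0.0749). SRSF11 200686_s_at was at -0.54 ± 0.17 (adjusted p = 0.0115) in irradiated cells and lost that call without irradiated eIF4E replicate 3 (-0.40, adjusted p = 0.0773) and after median centring (-0.34, adjusted p = 0.0963). SRSF3 202899_s_at (0.24 ± 0.12 and 0.26 ± 0.12) and SRSF6 206108_s_at (0.50 ± 0.24 and 0.31 ± 0.24) passed in neither (adjusted p from 0.0831 to 0.283). After median centring SRSF3 202899_s_at passed as higher in untreated (0.37, adjusted p = 0.0226) and in irradiated cells (0.45, adjusted p = 0.00643). SRSF6 206108_s_at passed as higher in untreated cells under 5 alternatives, namely median centring (0.63, adjusted p = 0.0274), the replicate block (adjusted p = 0.0134), the compared groups alone (adjusted p = 0.0364) and the omission of untreated IgG replicate 3 or irradiated eIF4E replicate 1 (values from 0.50 to 0.66, adjusted p from 0.0466 to 0.0476). In irradiated cells it passed under 2, without irradiated eIF4E replicate 1 (0.58, adjusted p = 0.0458) and without all replicate 1 arrays (0.39, adjusted p = 0.0335). SRSF10 206095_s_at was at 0.07 ± 0.16 (adjusted p = 0.739) in untreated and 0.52 ± 0.16 (adjusted p = 0.0100) in irradiated cells, and the latter call was lost without irradiated eIF4E replicate 2 (0.41, adjusted p = 0.0623). The difference between these values is tested with the irradiation effects.

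Irradiated against untreated cells, the comparison that asks what X-rays changed, gave no call in any SR probe set. In eIF4E precipitates 0 of 24 passed with limma and 0 had an unadjusted p under 0.05, beside 0% and 1.33% of all tested probe sets. In IgG precipitates 0 passed and 1 had an unadjusted p under 0.05, beside 0% and 7.43%. Differences in eIF4E precipitates ran from -0.67 (SRSF7 213649_at) to 0.21 (SRSF7 214141_x_at), with a median of 0.01. Their intervals bound the size of a change: that of SRSF3 208672_s_at was 0.08 (95% interval -0.16 to 0.32), that of SRSF1 211784_s_at -0.10 (95% interval -0.36 to 0.16), that of SRSF6 208804_s_at 0.10 (95% interval -0.19 to 0.39), and the widest, of SRSF7 213649_at, -0.67 (95% interval -1.54 to 0.21). No SR probe set had eIF4E arrays of irradiated cells all above or all below those of untreated cells, which 9.50% of all tested probe sets had. In IgG precipitates 1 was separate upwards, SRSF7 214141_x_at, and 2 downwards, SRSF10 206095_s_at and TRA2B 200893_at, beside 9.10%.

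The one unadjusted p under 0.05 was that of SRSF10 206095_s_at in IgG precipitates, at -0.41 (95% interval -0.74 to -0.08), with an adjusted p of 0.557 by limma. In eIF4E precipitates the same probe set was at 0.04 (95% interval -0.29 to 0.38). The difference between both irradiation effects, which is also the difference between the antibody effects of irradiated and untreated cells, was 0.45 (95% interval -0.02 to 0.92) and did not pass (adjusted p = 0.999). For this interaction 0 of 24 SR probe sets passed with limma and 0 had an unadjusted p under 0.05, beside 0% and 3.52% of all tested. SRSF6 208804_s_at was at 0.30 (95% interval -0.11 to 0.71) and TRA2B 200892_s_at at -0.12 (95% interval -0.60 to 0.36).

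**Figure D4:**
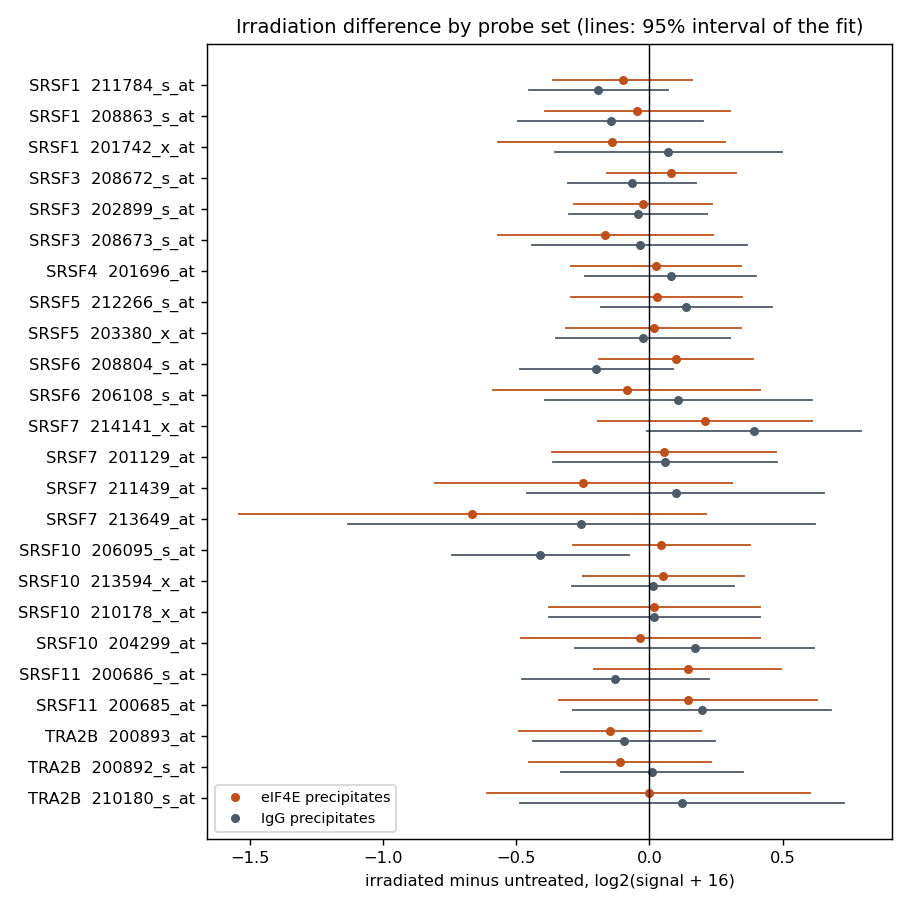
Irradiated minus untreated cells for the 24 tested SR probe sets (x axis, log2(signal + 16)), in eIF4E and in IgG precipitates, with 95% intervals of the limma fit as lines. Every interval includes 0 except that of SRSF10 206095_s_at in IgG precipitates, which had an adjusted p of 0.557.

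Genes that act with SR proteins were compared by 1 probe set each, over both treatments. It was the brightest tested, with _x_at only where there was no other. The lists here and below were chosen with earlier results of these data known, so their counts are a description and not a test of a list. Among other SR proteins, SRSF8 and TRA2A were both higher, at 0.99 ± 0.13 (adjusted p = 4.55e-06) and 0.90 ± 0.10 (adjusted p = 4.07e-07), where 30.8% of 7757 genes were. The other 2 listed genes had no probe set of their own. Of 8 tested kinases and importers of SR proteins, 4 were lower and 0 higher, beside 36.4% and 30.8% of 7757 genes with 1 probe set each (median -0.59, beside -0.07 for those genes and -0.66 for the 9 SR genes). They were the SR kinases SRPK1 at -1.54 ± 0.08 and SRPK2, the nuclear kinase DYRK1A at -1.71 ± 0.11 and TNPO3, the importer of SR proteins into the nucleus, at -1.25 ± 0.11. The CLK kinases CLK1, CLK2, CLK3 and CLK4 did not pass, with values from -0.17 to 0.23. Of 26 SR-related proteins, 16 were lower and 4 higher, beside the same 36.4% and 30.8% (median -0.57). The lowest were SRRM2, a coactivator of splicing, at -2.37 ± 0.19, NKTR, a cyclophilin with an arginine-serine tail, at -2.23 ± 0.11, and BCLAF1 at -2.07 ± 0.10. RNPS1, which joins the exon junction complex, SNRNP70 of the U1 particle and THRAP3 had the highest values at 0.98 ± 0.17, 0.95 ± 0.17 and 0.82 ± 0.31.

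The list of nonsense-mediated decay and exon junction genes had 9 tested members of 15, of which 7 were lower and 2 higher, beside 36.4% and 30.8% of 7757 genes (median -0.48, beside -0.07). In untreated cells alone 3 were lower and 2 higher, beside 29.8% and 24.4% of all tested probe sets. In irradiated cells 7 were lower and 2 higher, beside 30.3% and 24.4%, and 0 of the 9 passed for the difference between treatments. UPF2, which links the decay factor UPF1 to the exon junction, was at -1.73 ± 0.12, the endonuclease SMG6 at -1.18 ± 0.25 and RBM8A, a core of the junction, at -0.85 ± 0.13. MAGOHB, the partner of RBM8A, was higher at 1.16 ± 0.13, as was SMG9 at 0.84 ± 0.16. Of 4 tested export factors, NXT1 was higher at 1.69 ± 0.11 and THOC2 lower at -1.94 ± 0.14, beside the same 30.8% and 36.4% (median -0.05, beside -0.07). For irradiation, 0 of the genes of these lists passed in eIF4E or in IgG precipitates.

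**Figure D5:**
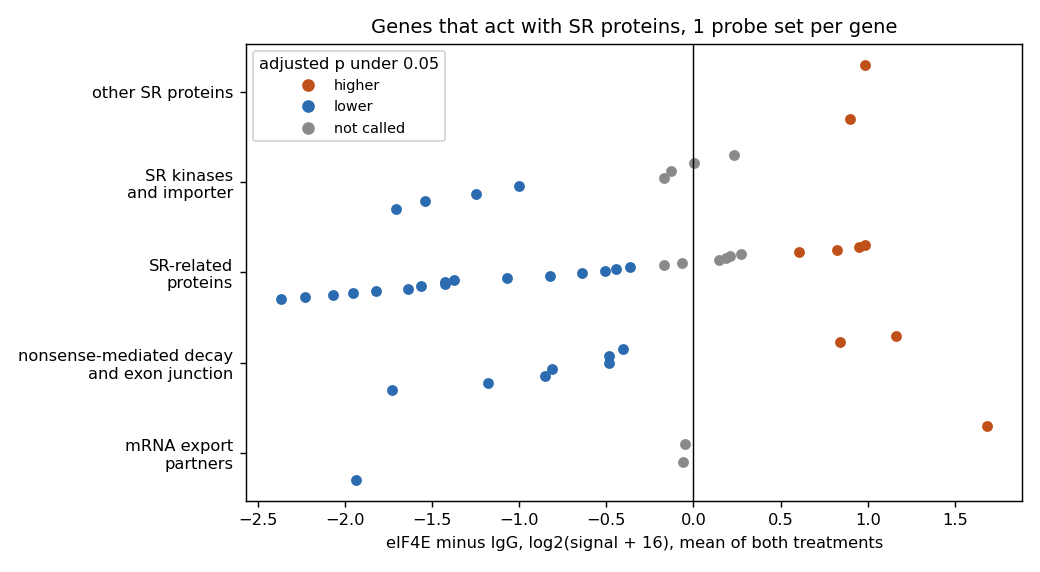
Difference between eIF4E and IgG arrays (x axis, log2(signal + 16), both treatments) for genes that act with SR proteins, 1 probe set per gene, by list (rows), with colours for the call at an adjusted p of 0.05. The points run from SRRM2 at -2.37 to NXT1 at 1.69, and 16 of the 26 SR-related genes lie on the lower side with a call.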

How the data were processed

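RNA bound to eIF4E or recovered with IgG was hybridised to 1 Affymetrix array per precipitate. Each deposited value is a probe set signal, an intensity on a linear scale that the authors made with MAS5, per the submitters' processing notes; no version was stated there. Every array had a trimmed mean of 500.2 (2% left out at each end). Signals were used as deposited. Of 22277 probe sets, 62 were controls, 19064 had 1 gene in the platform annotation, 1043 had several and 2108 none; symbols were updated through gene identifiers to RefSeq (GRCh38.p14, used for names and start windows).

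Probe sets with 1 gene whose mean of log2(signal + 16) reached the 40th percentile (a signal of 39.5) were tested, 11438 in all, each apart. The model was limma's (version 3.58.1, R 4.3.3), with lmFit, eBayes with a trend and 4 group means over 12 arrays, and p-values were adjusted with Benjamini-Hochberg over all of them at 0.05. Pairs of probe sets of 1 gene were fitted likewise on their ratio within an array. Differences on this scale understate changes of dim probe sets. Errors are SE of the fit. The fits were tested on simulated data. Figures were drawn with matplotlib 3.10.9.

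Members and lists were chosen with earlier results of these data known. All member probe sets are reported; signals of every array are given for the brightest tested one per gene and for those called in opposite directions, and from other lists up to 3 called genes at either end are named, with SRPK2 and the 4 CLK kinases added after their values were seen. Replicate numbers were checked as a pairing by correlating deviations from group means. In eIF4E precipitates, r between untreated and irradiated was 0.311 for replicate 1, 0.181 for replicate 2 and 0.123 for replicate 3. The numbers may therefore pair arrays there, from the data and not the design, but r between unlike numbers was not computed. Each other pair of groups had a replicate with r under 0.1, though replicate 1 gave 0.0899 to 0.249 in them. The fit reported, with its irradiation intervals, has no block, and the block was an alternative. The alternatives were other pseudocounts, filters, scalings, weights and variance models, a replicate block, fits of the compared groups alone, 1 probe set per gene, a minimum change of 1.5-fold, and leaving out single arrays or all replicate 1 arrays.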

Additional observations from a re-analysis of the deposited data

How the results depend on the processing

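Over 323 recomputed counts of called SR probe sets and pairs, 317 stayed within 1.5 times their value, and of 3318 recomputed differences of single SR probe sets 0 reversed a call, while 37 lost and 42 gained one. Over both treatments the 9 higher SR probe sets became 2 with 1 probe set per gene (9 tested) and 4 with a 1.5-fold minimum. In untreated cells the 5 higher became 9 after median centring and 1 with 1 probe set per gene. In irradiated cells the 6 higher became 2 with 1 probe set per gene, and the 8 lower became 5 after median centring. Fewer probe sets were tested with 1 per gene; the cause of the other shifts was not tested. Median centring moved the median difference of all tested probe sets from -0.07 to 0.09 and the share of higher among called ones from 44.9% to 54.6%; quantile normalization moved that median to 0.01 and that share to 49.9%. With the replicate block the counts were 9 higher and 8 lower over both treatments, 6 and 8 in untreated and 6 and 8 in irradiated cells, the added call being SRSF6 206108_s_at (0.50, adjusted p = 0.0134) in untreated cells, where numbers are not shown to pair arrays; it changed no other call of an SR probe set, and none for irradiation in eIF4E precipitates, also with those groups alone, a fit chosen after seeing the data. Leaving out 1 array gave 6 to 9 higher and 8 to 9 lower over both treatments, 4 to 6 and 8 in untreated, 5 to 7 and 7 to 9 in irradiated cells, and 13 to 17 called pairs. SRSF5 203380_x_at lost its call in untreated cells without untreated IgG replicate 3, untreated eIF4E replicate 1 or 2 or all replicate 1 arrays, and in irradiated cells without irradiated IgG replicate 2 or irradiated eIF4E replicate 1 or with the compared groups alone (adjusted p from 0.0507 to 0.0864). Over all tested probe sets irradiation gave 0 calls, and 9 in eIF4E precipitates with array weights or up to 3 in IgG precipitates under other settings. The number of arrays and signals near those of absent genes limit what dim probe sets can show.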
